A study of Homo sapiens with 4 samples.

Results

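The members described here are the skipped exon events of the translation initiation factor genes, taken by rule as the rows of the deposited table whose gene symbol begins with EIF and a digit and whose junction reads, inclusion plus skipping, average at least 20 over the 4 libraries. A skipped exon event is a middle exon between 2 flanking exons, and its inclusion level is the fraction of transcripts, from 0 to 1, that keep the middle exon, estimated from reads across splice junctions after correction for the length of each form. Of 384 EIF events, 361 met the read minimum, out of 54503 events in the table that did. They cover 275 distinct exons in 45 genes, 1 of which, EIF3J-AS1, is an antisense RNA and no initiation factor. The symbol also takes in genes that act on the factors, such as the eIF2 kinases and EIF4ENIF1. The rule uses the gene symbol and the number of reads, not the inclusion level.

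The study compared HEK293T cells, a human embryonic kidney line, in 2 groups of 2 libraries. One group was transfected with 70 nM of a gapmer antisense oligonucleotide (ASO) against SNORD89, a C/D box small nucleolar RNA (snoRNA), and the other is labelled as given none. Per the labels, medium was changed at 24 h and RNA was taken at 48 h after transfection, with polyA-selected libraries read as pairs of 150 bases. Replicates are labelled as biological replicates, no control ASO is named, and whether the cells without ASO received the lipid reagent is not clear from the labels. The deposited table names a first and a second set of 2 libraries each, and neither its headers nor the labels say which set received the ASO, so every direction below is first set against second set. Libraries are called library 1 and library 2 of a set by their place in the table, and these numbers pair nothing between sets. Depletion of SNORD89 and the identity of the cell line were not checked here.

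Translation initiation places a ribosome with an initiator tRNA on the start codon of a messenger RNA. eIF2 carries the initiator tRNA and is recharged by the exchange factor eIF2B, and the eIF2 kinases phosphorylate eIF2 under stress and so slow both. eIF3 is a large assembly that holds the small ribosomal subunit, eIF4E binds the cap, eIF4G is the scaffold that joins cap and ribosome, and the helicase eIF4A with its helpers eIF4B and eIF4H unwinds the leader. eIF5 and eIF5B act at start codon choice and subunit joining. Several of these genes also carry snoRNAs in their introns.

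The exons that the results turn on are shown first, 5′ to 3′ on the gene's strand, as GENCODE release 29 gives them, with coordinates as in the table (hg19). Those of EIF4H, EIF3K, EIF4G2 and EIF4G3 are deeply read alternative exons, and the 3 bases in capitals are the last of the exon, next to its 5′ splice site.
EIF4H, 60 nt, chr7:73604577-73604636, + strand: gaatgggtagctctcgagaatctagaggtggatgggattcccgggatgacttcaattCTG
EIF3K, 78 nt, chr19:39123241-39123318, + strand: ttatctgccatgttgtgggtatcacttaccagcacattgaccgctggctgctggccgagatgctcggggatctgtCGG
EIF4G2, 114 nt, chr11:10823208-10823321, - strand: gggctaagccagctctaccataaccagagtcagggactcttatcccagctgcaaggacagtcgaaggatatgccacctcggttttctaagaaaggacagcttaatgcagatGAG
EIF4G3, 111 nt, chr1:21219112-21219222, - strand: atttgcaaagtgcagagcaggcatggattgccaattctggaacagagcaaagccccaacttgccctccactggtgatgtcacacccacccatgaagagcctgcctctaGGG
The next exons each occur in forms that share 1 end. In the EIF3I exon of 172 nt the 22 bases in capitals are absent from the form of 150 nt that was called below, and in the EIF4A1 exon of 80 nt the 18 bases in capitals are the whole of a shorter form.
EIF3I, 172 nt, chr1:32691750-32691921, + strand: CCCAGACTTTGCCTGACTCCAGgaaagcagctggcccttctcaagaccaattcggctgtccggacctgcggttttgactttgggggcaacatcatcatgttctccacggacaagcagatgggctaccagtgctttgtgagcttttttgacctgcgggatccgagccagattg
EIF4A1, 80 nt, chr17:7481483-7481562, + strand: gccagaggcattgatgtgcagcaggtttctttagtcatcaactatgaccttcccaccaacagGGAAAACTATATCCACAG
For EIF4A2 only the ends of both forms are shown, the 26 last bases of the form of 107 nt and the 30 last bases of the form of 111 nt, in which the 4 extra bases are in capitals.
EIF4A2, end of the 107 nt form: cagcacactgtttgaataaagagcga
EIF4A2, end of the 111 nt form: cagcacactgtttgaataaagagcgaGTCG

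The EIF events were deeply read. The libraries of the first set held 799279 and 789152 junction reads on them and those of the second set 808290 and 883787. The mean per library of the median event was 1067 reads, against 190 for the median of all tested events. Library 2 of the second set stood apart from the other 3: it was the library farthest from the rest in 18 of the 40 EIF events with a mean inclusion level between 0.05 and 0.95, and in 43.2% of all such events. Results that rest on it are given with its value.

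Most initiation factor events were close to full inclusion on the mean of the 4 libraries. A mean inclusion level above 0.95 was found for 292 of the 361 events (80.9%, against 66.1% of all tested events), one between 0.05 and 0.95 for 40 (11.1%, against 24.6%), and one under 0.05 for 29 (8.03%, against 9.30%). The median inclusion level was 0.996, and that of all tested events was 0.983. Of the 271 exons matched to GENCODE release 29, 198 were coding, 22 were coding in some transcripts only, 13 were partly coding, 9 were non-coding and 29 lay in no protein-coding transcript. A length divisible by 3, which leaves the reading frame unchanged, was found for 106 of 275 exons (38.5%, against 40.3% of all tested exons). Among exons whose deepest event was of intermediate inclusion it was found for 14 of 24 (58.3%, against 44.8%).

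The difference between the sets was small on most members. The median absolute difference in inclusion level was 0.00285, and for all tested events it was 0.0114. The median gap between both libraries of a set was 0.00280 in the first set and 0.00201 in the second. These are unlike measures, since the difference is between means of 2 libraries and the gap between single libraries. Over the 40 events of intermediate inclusion the median absolute difference was 0.0355, against median gaps of 0.0311 and 0.0588 within the sets. By the FDR in the authors' deposited table, 3 of the 361 events were called at an FDR under 0.05 with a difference of at least 0.1 (0.831%, where 2.71% of all tested events were called). They lie in EIF3I and EIF2AK2, both higher in the first set, and in EIF4G1, lower in the first set; over all tested events 1.34% were called higher and 1.37% lower. Within intermediate inclusion the share was 3 of 40 (7.5%), beside 11.1% of all such events. An FDR under 0.05 at any difference was given to 7 members (1.94%, beside 5.72%), and an unadjusted p-value under 0.05 to 24 (6.65%, beside 14.3%). The counts per group below are to be read beside the shares over all tested events, 2.71% called and 14.3% with such a p-value.

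A quasi-binomial model took as its error the scatter of libraries within a set, drawn towards that of all tested events of like depth. The dispersions it used ran only from 3.38 to 4.81, so an event's own scatter counted little. The model called none of the 361 events after Benjamini-Hochberg adjustment over all tested events. Its smallest adjusted p on a member was 0.861, and it called 1 event in the whole table (0.00183%). Its unadjusted p was under 0.05 on 8 members (2.22%, beside 3.28%). limma fitted to log2 inclusion over skipping reads also called 0, with 17 members at an unadjusted p under 0.05 (4.71%, beside 4.87%), and limma with precision weights called 4 (1.11%, beside 0.657%), of which 3 lie in EIF3M and 1 in EIF3E. Among the 40 events of intermediate inclusion the libraries of both sets did not overlap in 14, 7 higher and 7 lower in the first set. That is 35%, beside 33.4% of all such events (16.9% higher and 16.6% lower). A difference of at least 0.1 was seen in 10 of the 40 (25%, beside 28.8%).

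**Figure D1:**
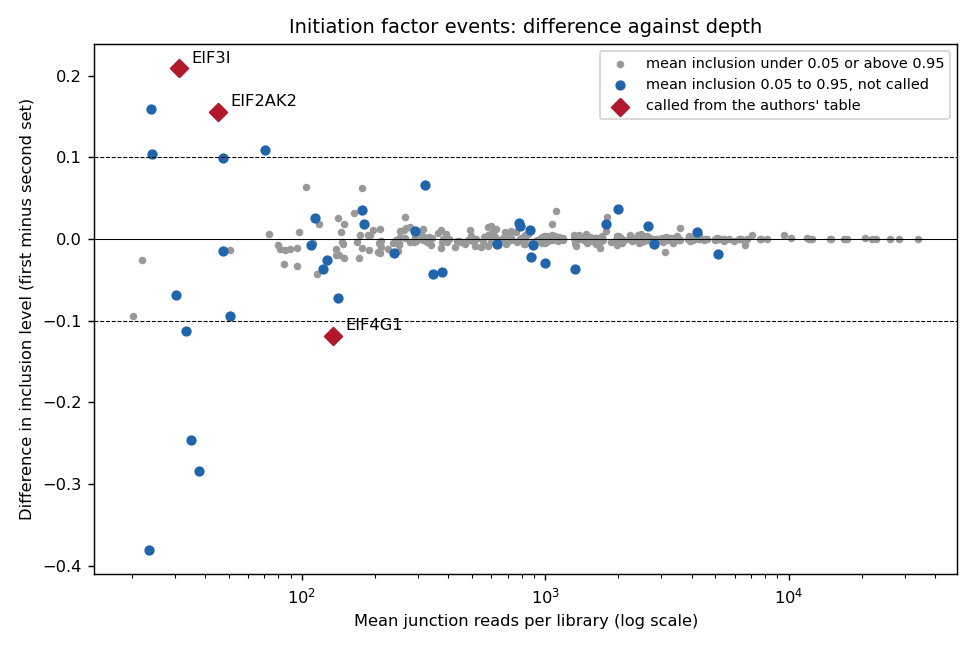
Difference in inclusion level (first set minus second set, vertical axis) of each tested EIF event against its mean number of junction reads per library (horizontal axis, log scale), with the called events marked. The called events have means of 31.25, 45 and 133.75 reads, and the most deeply read events lie close to 0.

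The eIF1 and eIF1A group, named for factors that help the ribosome scan for the start codon, had 8 tested events, all above 0.95 in mean inclusion. Their differences ran from -0.000579 to 0.00419, and none had a p-value under 0.05. EIF1AX had most events of the group, 5 of 8. Its least included exon, 51 nt and coding, was at 0.980 and 0.998 in the first set, against 0.984 and 0.989 in the second, so the sets overlapped.

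The eIF2 group (EIF2S2, EIF2S3, EIF2A and EIF2D) had 29 events on 24 exons, with 1 at a p-value under 0.05 and none called. EIF2D, a factor that can deliver tRNA to the ribosome without eIF2, held the 3 events of intermediate inclusion. Its coding exon of 150 nt was included at 0.938 and 0.921 in the first set, against 0.908 and 0.918 in the second, on 654 to 987 reads per library. The first set was higher there by 0.0163 without overlap, with an FDR (authors' deposited table) of 1. The neighbouring EIF2D exon of 104 nt, whose loss shifts the reading frame, varied more within each set than between them: 0.899 and 0.788 against 0.804 and 0.969. A second event of the 150 nt exon was at 0.882 and 0.798 against 0.796 and 0.966. It shares its skipping reads, 18, 39, 46 and 8, with that event of the 104 nt exon, so they are not separate measurements. Read with the 150 nt exon as a flank, the 104 nt exon was at 0.986 and 1.000 against 1.000 and 1.000. The least included exon of the group, 94 nt in EIF2A and in a single transcript marked for nonsense-mediated decay, was seen in 2, 0, 2 and 0 of 379, 328, 188 and 364 reads.

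The eIF2B genes had 36 events in 4 genes, with none at a p-value under 0.05 and differences from -0.0162 to 0.0121. EIF2B4 had most, 15 events. The 1 event of intermediate inclusion was a coding exon of 104 nt in EIF2B3, a subunit of the catalytic part of eIF2B. It was included at 0.945 and 0.876 in the first set, against 0.923 and 0.910 in the second, and the sets overlapped.

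The eIF2 kinase genes had 23 events on as many exons in EIF2AK1 (HRI, a kinase that responds to heme), EIF2AK2 (PKR, a kinase that senses double-stranded RNA) and EIF2AK4 (GCN2, a kinase that senses uncharged tRNA). EIF2AK1 had 9 of them and none of intermediate inclusion. The EIF2AK4 coding exon of 171 nt was included at 0.742 and 0.830 in the first set, against 0.716 and 0.820 in the second, with a difference of 0.0182. Its least included exon, 45 nt and coding, ran from 0.588 to 0.843, and both sets overlapped on both exons. The called member of the group is in EIF2AK2. Its non-coding exon of 401 nt (chr2:37376000-37376400, - strand) was included at 0.976 and 1.000 in the first set, against 0.871 and 0.793 in the second. The sets did not overlap, and the difference was 0.156, with an FDR (authors' deposited table) of 0.0440 and a quasi-binomial adjusted p of 0.861.

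That EIF2AK2 call rests on few skipping reads: the exon was kept in 80 of 81, 44 of 44, 27 of 29 and 23 of 26 junction reads. The 95% Wilson interval of library 2 of the second set ran from 0.551 to 0.923. Without the correction for form length the difference was 0.0860, under the 0.1 that a call needs. Other forms of the exon share its end at 37376000. The form of 167 nt was at 0.984, 1.000, 0.909 and 0.857, with a difference of 0.109 and an FDR (authors' deposited table) of 0.0809. The form of 83 nt was at 0.977, 1.000, 0.885 and 0.893, a difference of 0.0994, at an FDR of 0.0997 there. All 3 forms were thus more included in both libraries of the first set, but they skip between the same flanking exon ends and share skipping reads, so they are not separate measurements. Elsewhere in EIF2AK2 a coding exon of 159 nt was at 0.976, 0.991, 0.961 and 0.881, with an FDR (authors' deposited table) of 0.0304 and a difference of 0.0623, too small for a call and largest against library 2 of the second set.

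The eIF3 genes had 96 events on 72 exons in 12 genes, the most of any group. Their median absolute difference was 0.00172. Of the 96, 9 had a p-value under 0.05 and 1 was called, where 14.3% and 2.71% of all tested events did and were. EIF3K, the smallest subunit of the complex, had the deepest alternative exon of the group, the coding exon of 78 nt shown above. It was kept in 0.781 and 0.792 of transcripts in the first set, against 0.801 and 0.809 in the second, on 4028, 4411, 6575 and 5452 reads. Both libraries of the first set were lower, and the difference was -0.0186. The FDR in the authors' deposited table was 1, and the quasi-binomial unadjusted p was 0.169. EIF3A, the largest subunit and host of SNORA19, kept its deepest exon, 202 nt, in all but 2, 1, 1 and 0 of 3441, 3215, 3161 and 3639 reads. The least included exon of the group was an EIF3E exon of 145 nt, in a single transcript marked for nonsense-mediated decay. It was seen in 3 of 2184 reads in library 1 of the first set and in 0 of 2151, 1737 and 2141 reads in the others.

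The EIF3I call, in the gene of a WD-repeat subunit, has the largest difference of the 3. The coding exon of 150 nt (chr1:32691772-32691921, + strand) was included at 0.257 and 0.211 in the first set, against 0.040 and 0.00935 in the second. The sets did not overlap, and the first set was higher by 0.209. The FDR in the authors' deposited table was 8.44e-05, the quasi-binomial unadjusted p was 0.00785 and its adjusted p 0.861. The event had 22, 23, 26 and 54 junction reads, of which 9, 8, 2 and 1 supported inclusion, and the Wilson intervals of library 2 of the first set (0.104 to 0.380) and library 1 of the second (0.0108 to 0.137) overlap. As a raw share of reads the difference was 0.331, and leaving out 1 library at a time it stayed between 0.186 and 0.232.

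Other events of the same EIF3I exon give another picture of its level. The called event joins the exon to a first flank of 32688041-32688231 and a second flank of 32694100-32694210. With the flanks 32690011-32690076 and 32692004-32692131 the same 150 nt were included at 0.970, 0.978, 0.985 and 0.978, on 5653 to 8215 reads per library. With the first of those flanks and the second flank of the called event, inclusion was 0.968, 0.974, 0.964 and 0.982. The differences of these events were -0.00736 and -0.00191, and the sets overlapped in both. The longer form of 172 nt, shown above and found in no protein-coding transcript, was at 0.938, 0.954, 0.969 and 0.954, a difference of -0.0158. The called event thus counts few of the reads on this exon. A later exon of the gene, 111 nt and coding, had an event at 0.945 and 0.830 against 1.000 and 1.000 on 23 to 42 reads, with a difference of -0.113 and, in the authors' deposited table, an FDR of 0.0872.

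EIF3M, a subunit with a PCI domain, had 16 events, the most of the eIF3 genes, and 3 with an FDR under 0.05 in the authors' deposited table that were too small to be called. The exon forms of 211, 133 and 99 nt concerned end at the same base, 32608690 on chromosome 11. The form of 211 nt was at 0.984 and 0.984 in the first set, against 0.986 and 0.927 in the second. The form of 133 nt was at 0.992 and 0.992 against 0.993 and 0.965, and that of 99 nt at 0.978 and 0.977 against 0.982 and 0.906. In each, library 1 of the second set was at or above both libraries of the first set and only library 2 of the second set was low. All 3 share the same skipping reads, 14, 13, 12 and 78, and are the EIF3M events that limma with precision weights called. The EIF3E event it called, a non-coding exon of 171 nt, was at 0.00160 and 0.00440 against 0.0128 and 0.00419, with an FDR (authors' deposited table) of 1. With a farther downstream flank the form of 211 nt, named here after its values were seen, was at 0.3 and 0.317 against 0.586 and 0.524. It had 26, 27, 23 and 64 reads, a difference of -0.246 without overlap, and an FDR (authors' deposited table) of 0.0851. A deeper event, the coding exon of 133 nt with 1507 to 2149 reads per library, was at 0.895, 0.925, 0.877 and 0.906, with overlap. An exon of 139 nt was at 0.123 and 0.149 against 0.0995 and 0.316, again with library 2 of the second set apart.

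**Figure D2:**
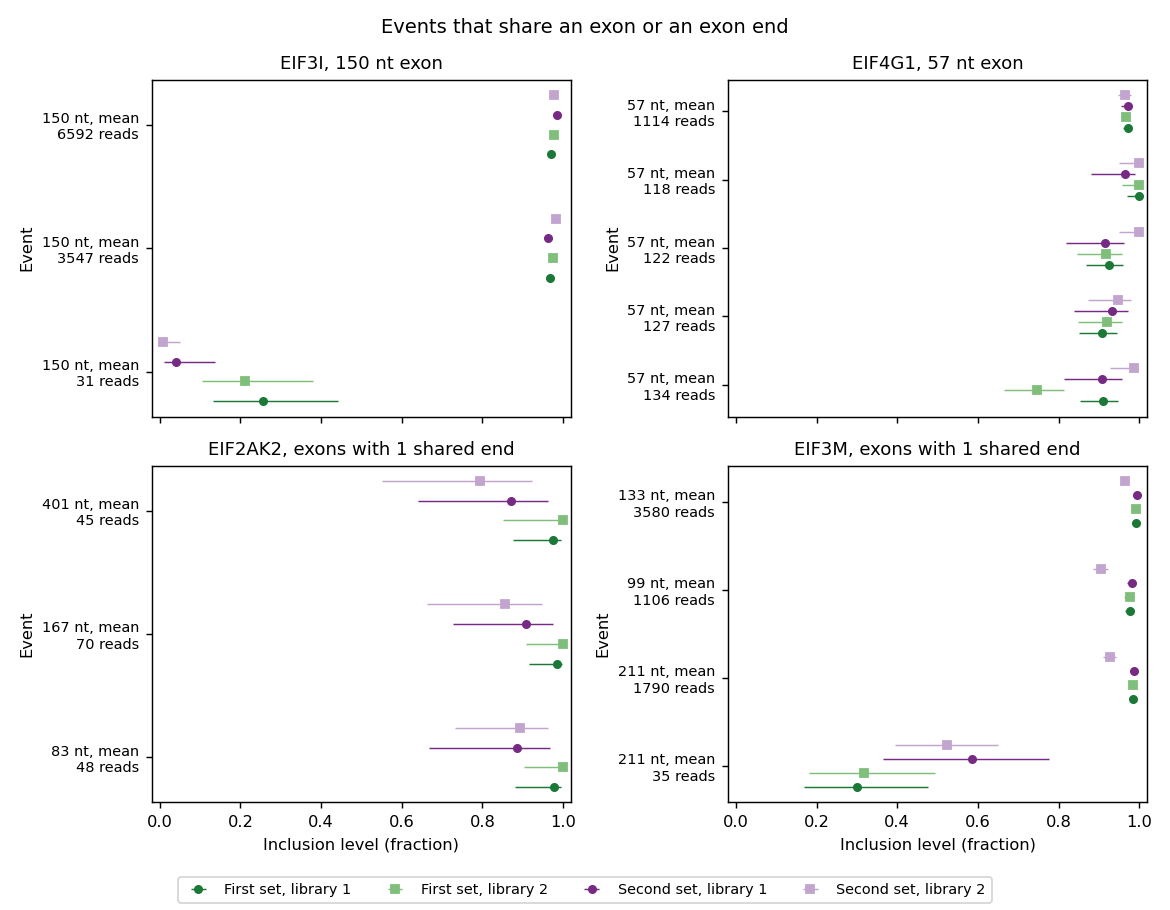
Inclusion level (horizontal axis, 0 to 1) in each of the 4 libraries, with 95% Wilson intervals, for the called EIF3I, EIF4G1 and EIF2AK2 events and for EIF3M, each beside events of the same exon or of exons that share 1 end (rows, with the mean reads per library). In EIF3I the called event lies at 0.257 or under, while the deeper events of the same exon lie at 0.964 or over in every library.

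The helicase genes EIF4A1, EIF4A2 and EIF4A3 with EIF4B and EIF4H had 40 events on 39 exons, with differences from -0.0374 to 0.0184, 2 at a p-value under 0.05 and none called. The EIF4H exon of 60 nt shown above, which is coding and keeps the frame, was mostly skipped and at nearly the same level throughout. It was at 0.162 and 0.162 in the first set, against 0.174 and 0.162 in the second, on 2323 to 3472 reads, a difference of -0.00606 with overlap. EIF4A1 had most events, 14, and its deepest exon, 140 nt, was skipped in at most 2 of 21038 to 26781 reads per library. The least included exon, 119 nt in EIF4B and in a transcript marked for nonsense-mediated decay, was seen in 2, 1, 0 and 0 of 1411, 1300, 897 and 1107 reads.

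EIF4A2, a close paralogue of EIF4A1, held 3 of the 4 events of intermediate inclusion in the group. A coding exon of 140 nt was at 0.743 and 0.733 in the first set, against 0.758 and 0.792 in the second. Its sets did not overlap, the difference was -0.0374, and the FDR was 0.559 in the authors' deposited table. Farther along the gene lie the 2 forms that differ by the 4 bases shown above, neither of them in a protein-coding transcript. The form of 111 nt was at 0.488, 0.521, 0.562 and 0.507, and the form of 107 nt at 0.437, 0.483, 0.501 and 0.463. Both sets overlapped in both forms. Each form is read against the same skipping junction, so their levels share reads.

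The group of eIF4E and its binding proteins (EIF4E, EIF4E2, EIF4E3 and EIF4ENIF1) had 18 events on 17 exons. EIF4E2 encodes 4EHP, a cap-binding protein that represses translation, and its coding exon of 135 nt gave the group's only p-value under 0.05. It was at 0.868 and 0.852 in the first set, against 0.837 and 0.811 in the second, on 1651 to 2316 reads. Both libraries of the first set were higher, by 0.0361. The unadjusted p was 0.0330 and the FDR 0.250 in the authors' deposited table, and the quasi-binomial unadjusted p was 0.0786. A second EIF4E2 exon, of 79 nt, was at 0.265 and 0.212 against 0.303 and 0.120 on 85 to 138 reads, with overlap. EIF4ENIF1, which encodes the eIF4E transporter 4E-T, had most events, 7, none of intermediate inclusion. EIF4E itself had its least included exon, 93 nt, at 0.0150, 0.00549, 0.00188 and 0.0157, with overlap.

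The eIF4G genes had 83 events on 45 exons in 3 genes and 15 of the 40 events of intermediate inclusion. Of the 83, 7 had a p-value under 0.05 (over all tested events 14.3% did) and 1 was called (over all tested events 2.71% were). EIF4G2 (DAP5) lacks the eIF4E binding site of its relatives. Its coding exon of 114 nt, shown above, is after that of EIF3K the most deeply read alternative exon of all members. It was at 0.931 and 0.929 in the first set, against 0.933 and 0.910 in the second, on 5778, 4790, 2765 and 3445 reads, a difference of 0.00826 with overlap. SNORD97 lies in an intron beside it. The gene's least included exon, a non-coding exon of 232 nt, was at 0.00666 or less in every library.

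EIF4G3 (eIF4GII) had 36 events on 21 exons, 6 of them of intermediate inclusion. Its coding exon of 111 nt shown above was at 0.184 and 0.240 in the first set, against 0.195 and 0.0973 in the second, on 527, 371, 165 and 221 reads. The difference of 0.0662 came with overlapping sets and with the low value of library 2 of the second set, and the FDR was 0.102 in the authors' deposited table. The exon of 147 nt was at 0.850, 0.893, 0.888 and 0.870, the exon of 114 nt at 0.138, 0.118, 0.0479 and 0.138, and the exon of 96 nt at 0.905, 0.911, 0.899 and 0.897. The sets overlapped on the exons of 147 and 114 nt. On the exon of 96 nt they did not, with a difference of 0.00946 and an FDR (authors' deposited table) of 1.

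EIF4G1 (eIF4GI) had the most events of all members, 39 on 16 exons. The called event is a non-coding exon of 57 nt (chr3:184033277-184033333, + strand). It was at 0.910 and 0.746 in the first set, against 0.907 and 0.986 in the second, on 195, 152, 87 and 101 reads. The sets overlapped, since library 1 of both sets was nearly equal. The difference was -0.119, with an FDR (authors' deposited table) of 0.0189 and a quasi-binomial adjusted p of 0.861. Without library 2 of the first set it was -0.0366, without library 2 of the second set -0.0789, and without library 1 of the first set -0.200.

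The same 57 nt lie in 4 more events with the same upstream flank. With the nearest downstream exon, on 1533, 1394, 809 and 720 reads, the level was 0.971, 0.967, 0.971 and 0.966, a difference of 0.000509. With the others it was 0.908, 0.919, 0.932 and 0.948; 1.000, 1.000, 0.964 and 1.000; and 0.925, 0.917, 0.916 and 1.000. None of these was called. The partly coding exon of 147 nt was at 0.922, 0.935, 0.892 and 0.944, and a form of 87 nt with the same end at 0.894, 0.869, 0.885 and 0.840, both with overlap. Large differences on few reads were also seen on nearby exons, in events named after their values were seen. An event of the 87 nt exon was at 0.405 and 0.174 against 0.457 and 0.883 (27, 40, 14 and 13 reads), and one of a 94 nt exon at 0.609 and 0.395 against 0.660 and 0.912 (46, 62, 25 and 18 reads). Neither pair of sets overlapped, the differences were -0.381 and -0.284, and the FDR was 0.142 and 0.160 in the authors' deposited table.

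The last group, EIF5, EIF5A, EIF5A2, EIF5B and EIF6, had 27 events on 21 exons, none with a p-value under 0.05. EIF6, which keeps the ribosomal subunits apart, had a coding exon of 176 nt at 0.872 and 0.827 in the first set, against 0.837 and 0.830 in the second, with overlap. EIF5A, the factor that carries hypusine, had most events of the group, 9. Its non-coding exon of 95 nt shows how far a level depends on the flanks. Read with 1 upstream exon it was at 0.0924, 0.0512, 0.0568 and 0.121 on 197 to 294 reads, and with another it was at 0.00145, 0.000595, 0.00063 and 0.00183 on 13494 to 21332 reads. EIF5A2, a paralogue of EIF5A, had partly coding exons of 92 nt (0.913, 0.832, 0.881 and 1.000) and 158 nt (0.947, 0.930, 0.907 and 1.000), read 18 to 73 times per library, with overlap. Of the 275 member exons, 60 lay in more than 1 event, up to 7, and on 5 the events of 1 exon differed by more than 0.5 in mean inclusion. The single event of EIF3J-AS1, an exon of 316 nt, was at 1.000, 0.976, 1.000 and 1.000.

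**Figure D3:**
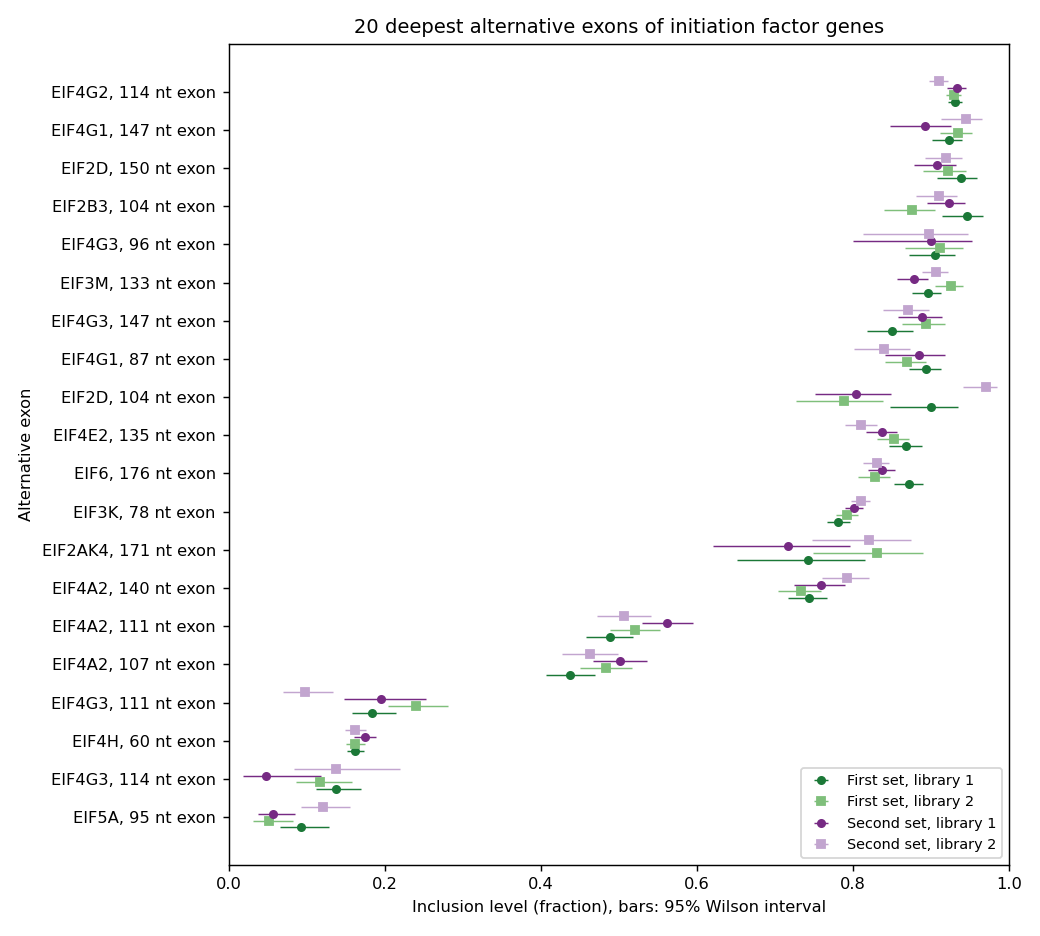
Inclusion level (horizontal axis, 0 to 1) in each of the 4 libraries, with 95% Wilson intervals, of the 20 most deeply read EIF exons whose mean inclusion lies between 0.05 and 0.95. The levels span the range from 0.0479 in EIF4G3 to 0.969 in EIF2D, and for most exons the symbols of both sets overlap.

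The EIF events nearest to the read minimum show what it leaves in and out. Just inside were an EIF3I exon with a mean of 20.25 reads and a difference of -0.0944, and an EIF4E3 exon with 22 reads and -0.0253. Just outside were 2 events of the EIF4G3 exon of 114 nt, with 19 and 18.25 reads and differences of -0.160 and -0.153, in which the libraries of the second set held 1 and 5 reads each time.

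By GENCODE release 29, 7 member genes hold a snoRNA in an intron: EIF1AX, EIF3A, EIF4A1, EIF4A2, EIF4G1, EIF4G2 and EIF5. An intron beside the exon carried a snoRNA in 18 of the matched events. None of these 18 was called, and 2 had a p-value under 0.05 (11.1%). Of the 338 matched events without one, 3 were called (0.888%) and 21 had such a p-value (6.21%). Over all tested events these shares were 2.71% and 14.3%. Both of the 2 lie in EIF4A1, on forms of the exon shown above. The form of 18 nt was at 0.960 and 0.963 in the first set, against 0.944 and 0.942 in the second, on 755, 989, 1432 and 1096 reads. The first set was higher by 0.0184 without overlap, and the FDR was 0.197 in the authors' deposited table. The form of 125 nt, in a transcript marked for nonsense-mediated decay, was at 0.991 and 0.990 against 0.986 and 0.986, higher by 0.00431 with an FDR of 0.317 there. The form of 80 nt was at 0.997, 0.997, 0.996 and 0.996, on 16075 to 24639 reads. These 3 forms share skipping reads. The other deepest exons of snoRNA host genes, in EIF1AX (84 nt), EIF4G1 (99 nt), EIF4G2 (216 nt) and EIF5 (165 nt), were at 0.991 or more in every library, and that of EIF4A2 (90 nt) at 0.977 or more.

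Junction reads summed over the tested events of a gene, scaled to the same total in every library (CPM), give a rough level of each gene. A read can count in several events of a gene, and the sum also moves with splicing, so this is no count of transcripts. Before centring, the median over all 9999 genes was higher in the first set by 0.35 on the log2 scale, so log2 differences are given relative to the median gene of each library. With limma, 21 of the 45 EIF genes passed an adjusted p of 0.05 (46.7%, where 41.4% of all genes did). More reads in the first set were found for 4 (8.89%, where 21.6% of all genes rose) and fewer for 17 (37.8%, where 19.9% fell). The median log2 difference over the EIF genes was -0.22 and over all genes -0.01. Without centring the counts were 14 with more (31.1%, where 38.7% of all genes rose) and 4 with fewer (8.89%, where 3.89% fell), so how many genes pass depends on the scaling. The direction was the same under both scalings for each of the 21, and it differed for 10 of the 45.

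The 8 genes that passed under both scalings in the same direction were EIF4G3, EIF4G2, EIF5 and EIF2AK1 with more reads in the first set, and EIF6, EIF3G, EIF2B3 and EIF3K with fewer. The CPM values given here are not centred, while the log2 differences beside them are. EIF4G2 had 761.8 and 603.1 CPM in the first set, against 290.6 and 336.2 in the second. The first set was higher by 0.76 ± 0.13 (log2, SE, n = 2 and 2, limma adjusted p = 0.000118), and the deepest event alone gave 0.57 (limma adjusted p = 0.00162). EIF4G3 had 407.6 and 281.3 against 134.3 and 146.5, higher by 0.92 ± 0.14 (limma adjusted p = 3.1e-05). Without centring the log2 differences were 1.12 for EIF4G2 and 1.27 for EIF4G3. The deepest event of EIF4G3 alone gave 0.05 (limma adjusted p = 0.827), so the higher sum came from its other events. The deepest event alone also did not pass for EIF5 (0.25, limma adjusted p = 0.177) or EIF2AK1 (0.29, limma adjusted p = 0.133). EIF5 and EIF2AK1 were higher by 0.37 and 0.35 and each lost the call in 3 of the 4 fits that left out a library.

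Among the genes with fewer reads in the first set, EIF6 had 231.2 and 250.7 against 306.6 and 306.6 CPM, lower by 0.70 ± 0.13 (log2 difference of -0.70, limma adjusted p = 0.000196). EIF3G had 496.7 and 568.8 against 661.0 and 691.2 (-0.70, limma adjusted p = 0.000351). EIF2B3 had 139.6 and 156.9 against 173.2 and 195.8 (-0.67), and EIF3K had 493.1 and 527.8 against 667.1 and 595.8 (-0.66). Without centring, as the CPM values are, the log2 differences were smaller: -0.35 for EIF6, -0.35 for EIF3G, -0.31 for EIF2B3 and -0.31 for EIF3K. All 4 kept the call with each library left out and on their deepest event alone. By group, all 3 eIF4G genes had more reads in both libraries of the first set than in either of the second, after centring. Of the 12 eIF3 genes, 10 had fewer in both and 1, EIF3A, had more; 6 of the 10 passed with limma, and 2 of them without centring. Over all genes 36.8% had no overlap with the first set higher and 36.9% with it lower, so such separation is common in these libraries. The part of depth or of the libraries' preparation in these differences was not tested.

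**Figure D4:**
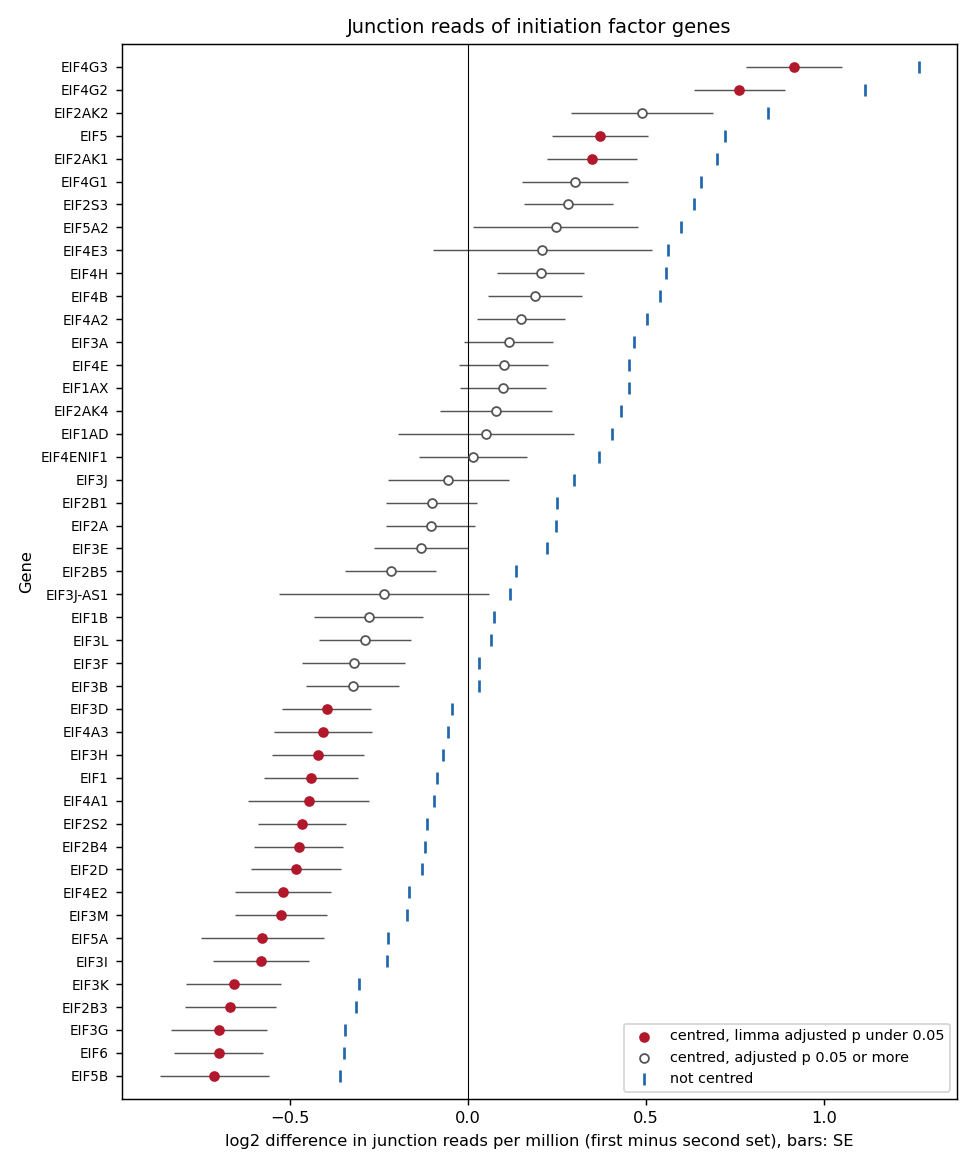
Log2 difference in junction reads (first set minus second set, centred on the median gene, horizontal axis) of the 45 EIF genes, with standard errors, ordered by size; filled points passed a limma adjusted p of 0.05, and blue ticks are the same differences without centring. EIF4G3 and EIF4G2 lie highest at 0.92 and 0.76, and most eIF3 and all eIF2B genes lie below 0 when centred.

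Among 42 other genes of translation initiation and its control, 38 had 299 tested events. A p-value under 0.05 was given to 42 of the 299, where 14.3% of all tested events had one. Of the 299, 4 were called (1.34%, beside 2.71% of all tested events), 2 in each direction. MKNK2, a kinase that phosphorylates eIF4E, had an exon of 226 nt at 0.461 and 0.470 in the first set, against 0.305 and 0.228 in the second. The difference was 0.199, the FDR 4.25e-06 in the authors' deposited table, and the quasi-binomial adjusted p 0.0931. GIGYF2, a partner of 4EHP in translational repression, had an exon of 70 nt at 0.323 and 0.351 against 0.754 and 0.671. The difference was -0.375, on 33 to 114 reads, with an FDR of 7.15e-05 there. RPTOR, the scaffold of mTOR complex 1, had an exon of 111 nt at 0.882 and 0.904 against 0.844 and 0.718 (FDR 0.0395 in the authors' deposited table). RPS6KB2, a ribosomal protein S6 kinase, had an exon of 110 nt at 0.762 and 0.663 against 0.802 and 0.906 (FDR 0.0228 in the authors' deposited table). In all 4 the sets did not overlap, and in the last 3 the quasi-binomial adjusted p was 0.861.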

How the data were processed

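PolyA RNA-seq reads of 4 HEK293T libraries were processed by the authors with cutadapt and STAR on hg19, per the submitters' processing notes. The deposited table has the rMATS layout for skipped exons counted on junction reads, per the file headers; the rMATS version, its settings and the annotation are not given in the sources used here. The authors deposited junction read counts per library, the inclusion level as a fraction, the difference as a score (first set minus second set), and a p-value with its FDR. Recomputed differences were within 0.00137 of the deposited ones.

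Here an event was tested at a mean of at least 20 reads and called at an FDR under 0.05 with a difference of at least 0.1. Intervals are 95% Wilson intervals of the read share, carried to the length-corrected scale, and cover counting error only. The quasi-binomial model was fitted to all 54503 tested events in R 4.3.3, with limma 3.58.1 moderating the dispersion (3.38 to 4.81, never under 1). Its prior, taken along depth from events with at least 10 reads of each form, was set after a first version failed on simulated data. On 54503 simulated events, 200 of them changed by 0.3, it found 151 with binomial noise and 71 at the measured scatter; weighted limma found 36 and 0, and plain limma 0 and 0. limma on gene junction reads (pseudocount 0.5, 9999 genes), added after seeing the data, found 200 of 200 changes of 4-fold among 213 calls. All adjusted p are Benjamini-Hochberg.

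GENCODE release 29 (GRCh38) gave names, coding status and exon sequences by matching exon spacing within a gene, for 356 of 361 events (98.6%); no coordinate was converted. The members and gene lists were chosen with earlier results of these data known. Named events were those called, the 20 deepest alternative exons, the least included event per role, the events nearest the read minimum, the deepest event of each snoRNA host, and called events of the other translation genes; other events given beside them were chosen after their values were seen.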

Additional observations from a re-analysis of the deposited data

How the results depend on the processing

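The count of 3 called EIF events was 7 with no read minimum, 5 at a mean of at least 10 reads, and 1 each at a mean of at least 50 reads, at a difference of at least 0.2, at an FDR under 0.01, or with 1 event per exon. The authors' test was not repeated with a library left out. With its FDR kept and only the difference taken anew, 2 to 3 of the events still reached 0.1. The 4 calls in the other translation genes became 9 at a difference of at least 0.05, 1 at 0.2 and 2 at an FDR under 0.01. With a library left out and the FDR kept in the same way, 2 to 4 reached the difference, the lowest without library 2 of the second set. The quasi-binomial count of 0 was 4 with limma with precision weights and 0 in every fit that left out a library. The median absolute difference of 0.00285 was 0.0355 over events of intermediate inclusion only, and 0.00253 to 0.00311 with a library left out. Of the 3 calls 66.7% were higher in the first set, and over these same 3 events, whether still called or not, the share was also 66.7% with each library left out. For gene junction reads, the 4 EIF genes with more in the first set became 14 without centring, 2 on the deepest event alone and 2 to 4 with a library left out, the lowest without either library of the first set. The 17 with fewer became 4 without centring and 7 to 17 with a library left out, with 7 without library 1 of the first set and 11 without library 1 of the second. The causes of these changes were not tested. Of 44 named events, leaving out library 2 of the first set changed the sign of the difference in 12 and the other 3 libraries in 6 to 10, none of them called. No paired analysis was possible because the reads of a set share a cell without the labels' replicate numbers. In the quasi-binomial and limma fits that left out a library, the lone library of a set was taken to vary like the other set. The EIF3I and EIF2AK2 calls rest on means of 31.25 and 45 reads.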
